A study of Canis lupus familiaris with 222 samples.

Results

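Carcinoma in benign mixed tumor is a malignant canine mammary tumor (CMT), and RNA-seq of such carcinomas was compared here with adjacent normal mammary tissue of the same animals. Of 64 dogs with a tumor and a normal library, 7 had a tumor of this class in the study's clinical table (CMT-051, CMT-072, CMT-107, CMT-188, CMT-523, CMT-651 and CMT-756), which gave 14 of the 222 libraries of the series. All 7 were female dogs treated by surgery and were 6 to 15 years old. According to the labels 4 were Maltese, 1 was a Shih Tzu and 2 were of mixed breed, and 5 were intact and 2 neutered (CMT-188 and CMT-651). Every tumor stained for the estrogen receptor, with Allred scores of 5 to 8. The HER2 scores ran from 0 to 3, and the label of lymphatic vessel invasion was absent in every dog. Grade was 2 in CMT-072 and CMT-756 and 1 in 4 other dogs. CMT-051 carries no grade, and its sample label gives a benign mixed tumor where the clinical table gives a carcinoma. It was kept among the 7, and results are also given for the other 6 dogs.

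Mixed tumors of the canine mammary gland hold luminal epithelial cells, myoepithelial cells and a mesenchymal part with cartilage, bone or fat. The name carcinoma in benign mixed tumor is given when malignant epithelium grows within such a tumor. Complex carcinomas share the myoepithelial part but lack cartilage and bone, while simple carcinomas are built of one epithelial cell type. The normal sample is mammary gland next to the tumor, a mixture of ducts, lobules, fat and connective tissue whose makeup changes with the estrous cycle. In such bulk tissue a loss of cells of one type and a lower RNA level per cell cannot be told apart. The table lists Ensembl gene identifiers that no source used here pairs with gene names. Markers of luminal, myoepithelial, cartilage, bone, fat or milk-producing cells therefore could not be read, and the labelled tissues could not be checked against them.

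Values were FPKM, a gene's fragments scaled both to transcript length and to library size. Tumors had 11523 to 13121 genes at 1 FPKM or more, and normal tissues 12005 to 12897. The 10 most abundant genes held 15.1 to 22.7% of the FPKM total in tumors and 16.2 to 29.5% in normal tissues. The number of reads behind a single value is unknown. The libraries of a dog matched each other. Over 100 genes that followed the dog in the 57 other dogs with both tissues, each of the 7 tumors correlated more strongly with its own normal tissue (r from 0.682 to 0.841) than with any other of the 64 normal tissues.

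In which tissue they resembled more, the tumor of CMT-756 and the normal tissue of CMT-051 stood apart from the rest of their tissue. Each library was correlated with the mean of the 57 normal tissues of other dogs and with the mean of 8 unmatched tumors, which are carcinomas in mixed tumor in the clinical table without a normal library (1 of them, CMT-257, is a benign mixed tumor in its sample label). These correlations run over the 14514 genes tested, which are not independent, and describe likeness only. Of the 7 tumors, 6 were closer to the unmatched tumors, by 0.0283 to 0.0681 in r. The tumor of CMT-756 was closer to normal tissue, with r of 0.899 to the normal mean and 0.831 to the tumor mean. It resembled the normal tissue of CMT-072 (r = 0.92) more than its own normal tissue (r = 0.84). Of the 7 normal tissues, 6 were closer to the normal mean, with gaps in r (tumor mean less normal mean) of -0.0895 to -0.0194. Among the 7, the normal tissue of CMT-072 had the lowest r to the normal mean (0.878, and 0.793 to the tumor mean). It also lay furthest from the mean of the other 6 normal tissues. That root mean square distance on the log2 scale was 1.11, against 0.9 for CMT-051. The normal tissue of CMT-051 was closer to the tumors, with r of 0.951 to the tumor mean and 0.901 to the normal mean. This gap of 0.0495 lay just above the highest value among the 57 other normal tissues, which ran from -0.102 to 0.0481 with 9 above 0. Normal tissues from surgery in 2016 were above 0 more often than those of later years. CMT-051 and most of the 8 unmatched tumors are also from 2016, and a link of the gap to surgery year was not tested. In the study's clinical table, whose clusters come from the same expression data, CMT-756 is in cluster NMF4, CMT-188 in NMF2 and the other 5 dogs in NMF1. The paper describes the NMF4 signature as specific to adjacent normal tissue, and NMF1 and NMF2 as relatively specific to tumors. Whether either library holds the labelled tissue was not tested. The main counts are also given without the dogs CMT-051 and CMT-756, and CMT-072 stays in those counts.

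**Figure D1:**
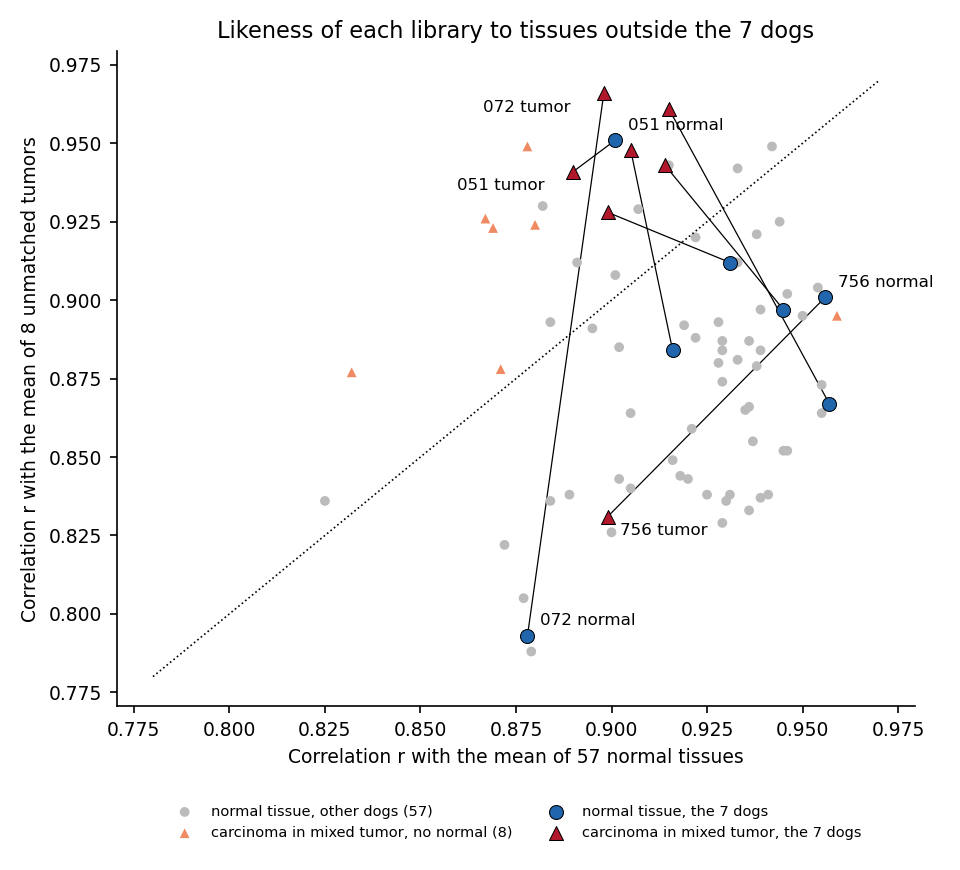
Correlation r of each library with the mean of 57 normal tissues of other dogs (x axis) and with the mean of 8 unmatched carcinomas in mixed tumor (y axis), a library being left out of its own mean. Triangles are tumors and circles normal tissues, lines join both libraries of a dog, and the dotted line marks equal likeness. The tumor of CMT-756 (0.899 and 0.831) lies below the line among the normal tissues, and the normal tissue of CMT-051 (0.901 and 0.951) lies above it among the tumors.

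Between 1917 and 4133 of the 14514 genes differed at least 2-fold between the tumor and the normal tissue of a single dog. CMT-051 had the fewest, 830 higher and 1087 lower in the tumor, which is 13.2% of genes. CMT-072 had the most, 2358 higher and 1775 lower, or 28.5%. In CMT-107 there were 1283 higher and 698 lower genes, and in CMT-188 1197 higher and 1333 lower. CMT-523 had 842 higher and 1134 lower genes, CMT-651 had 993 and 1886, and CMT-756 had 1161 and 2199. Lower genes thus outnumbered higher ones in 5 dogs, and CMT-072 and CMT-107 were the exceptions. The median log2 difference of all genes, 0.171 and 0.217 in these 2 dogs, was below 0 in the other 5 (-0.257 to -0.0181). The direction of the split thus went with the sign of this median, but its size did not follow the median. CMT-651, with a median of -0.0181, had a far more uneven split than CMT-188, with -0.0705. The correlation of a tumor with its own normal tissue over the same genes was between 0.77 in CMT-072 and 0.927 in CMT-051. Genes that moved at least 8-fold in 1 dog and under 2-fold in each of the other 6 were few, 1 to 9 higher per dog and 4 to 9 lower in 6 of the dogs. In CMT-107, 34 genes were lower in this way.

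**Figure D2:**
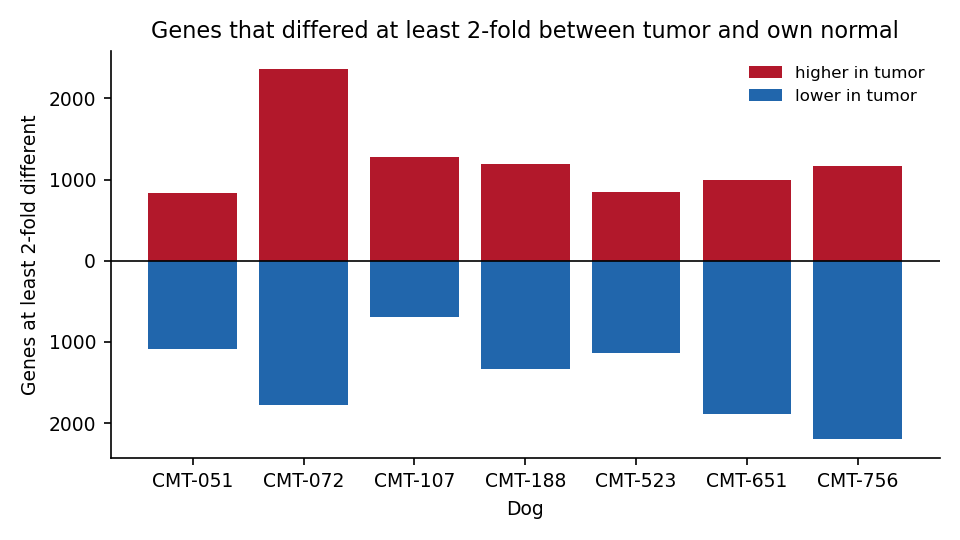
Number of genes (y axis) at least 2-fold higher (red, upward) or lower (blue, downward) in the tumor than in the normal tissue of the same dog, for each of the 7 dogs (x axis), on the log2(FPKM + 1) scale. The totals run from 1917 genes in CMT-051 to 4133 in CMT-072.

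The differences of the 7 dogs were only weakly alike. Over the 21 pairs of dogs, the correlation across genes of the log2 differences had a median of 0.0901, and 13 pairs were above 0. The highest value was 0.538, between CMT-072 and CMT-651, and the lowest was -0.47, between CMT-072 and CMT-756. In the latter pair the normal tissue of CMT-072 and the tumor of CMT-756 are the libraries that resembled each other. All 10 pairs among CMT-072, CMT-107, CMT-188, CMT-523 and CMT-651 were above 0 (0.0365 to 0.538). CMT-051 gave values from -0.071 to 0.0605 with the other dogs, 1 of 6 above 0. CMT-756 gave values from -0.47 to 0.126, 2 of 6 above 0.

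**Figure D3:**
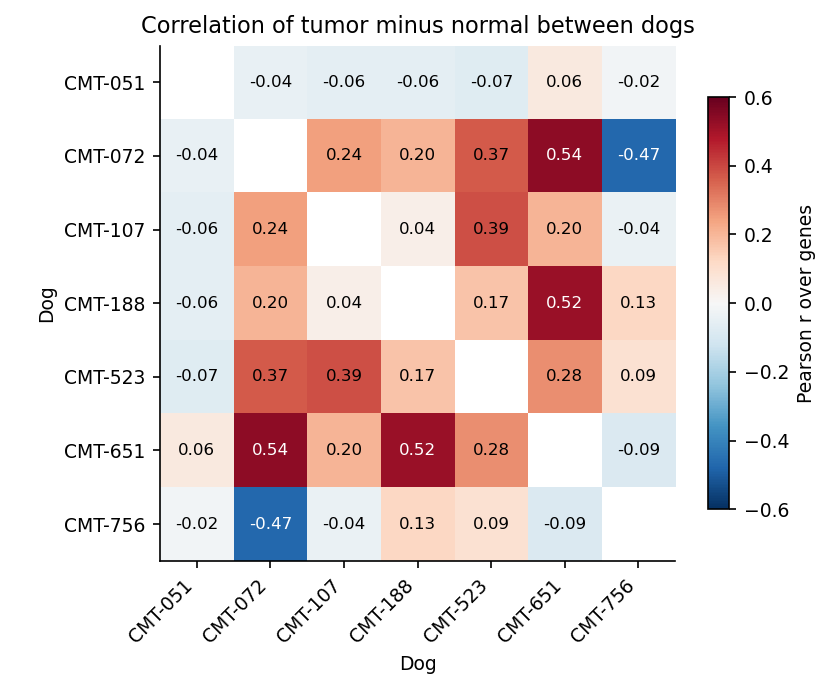
Pearson correlation over 14514 genes of the log2 difference, tumor minus normal, for every pair of the 7 dogs (both axes), with the colour scale from -0.6 to 0.6. CMT-072 and CMT-651 share the highest value (0.54), CMT-072 and CMT-756 the lowest (-0.47), and the row of CMT-051 stays near 0.

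The paired comparison asks which genes differ between carcinoma in mixed tumor and the gland beside it in the same dog. Fitted within dogs, 1 gene of 14514 was called (0.00689%), at an adjusted p under 0.05 (limma, Benjamini-Hochberg) and a difference of at least 2-fold. It was higher in the tumors, and no gene was called lower. At an unadjusted p under 0.05 there were 1325 genes (9.13%), where a share of about 0.05 would be expected if no gene differed. Without CMT-051, 0 genes were called, 1549 (10.7%) had an unadjusted p under 0.05, and the smallest adjusted p was 0.0583. Without CMT-051 and CMT-756 there were 8 calls, 5 higher and 3 lower. There 2344 genes (16.1%) had an unadjusted p under 0.05. That number was 764 (5.26%) without CMT-651, close to the expected share. Genes vary together, so these shares are no test. A fit that ignored the dog called 4 genes, all higher. The mean difference over the 7 dogs reached 2-fold for 797 genes, 550 of them lower, and 1 of the 797 passed the test. Higher genes made up 1.7% of genes and lower genes 3.79%. Without CMT-756 the shares were 3.00% and 4.96%, and without CMT-051 and CMT-756 there were 1535 such genes, 4.54% higher and 6.04% lower. These 2 dogs were set aside after the data were seen, and means over fewer dogs vary more. The rises in calls and shares can therefore come in part from the choice itself. The median standard error of a difference was 0.226 on the log2 scale and the median half-width of its 95% interval 0.513. For 10490 genes (72.3%) that interval lay within 2-fold in both directions.

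The called gene was ENSCAFG00000005458, and its name and function could not be given. Its tumor FPKM was 12.8 in CMT-051, 13.9 in CMT-072, 11.7 in CMT-107, 17.0 in CMT-188, 10.2 in CMT-523, 51.1 in CMT-651 and 15.7 in CMT-756. In the normal tissues of the same dogs, in that order, it was 1.61, 1.82, 0.734, 0.625, 1.16, 2.43 and 0.169. Every tumor stood above every normal tissue, which held for 5 of the 14514 genes (0.0344%), while 12 genes (0.0827%) had every tumor below every normal tissue. Mean FPKM was 18.9 ± 14.4 in tumors and 1.22 ± 0.782 in normal tissues (SD, n = 7 each). The mean log2 difference was 3.04 with a standard error of 0.25 and a 95% interval from 2.47 to 3.61 (limma, adjusted p = 0.0126). A gene picked for the smallest p tends to show a small spread in the dogs used to pick it. With all 64 dogs in one fit the difference was the same, but its standard error was 0.648 (limma, adjusted p = 0.0235, rank 9 by p). Between 2.38 and 3.93, the 7 single differences included CMT-051 (2.40) and CMT-756 (3.84), the dogs whose other genes did not follow the rest. The call was lost when CMT-051, CMT-107, CMT-188 or CMT-651 was left out, with adjusted p of 0.0583, 0.106, 0.0949 and 0.0543. The difference stayed between 2.89 and 3.15 when any single dog was left out. Among the 3 dogs with surgery in 2016 the mean difference was 2.56, and among the 3 with surgery in 2017 it was 3.26, with adjusted p of 0.797 and 0.277. For 2018 there is 1 dog only.

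In the 8 unmatched carcinomas in mixed tumor, ENSCAFG00000005458 lay between 0.343 and 36.7 FPKM with a median of 23.5. The 57 normal tissues of other dogs ran from 0.0274 to 134 with a median of 0.92, so that these groups overlapped. The log2 difference between them was 2.50 with a standard error of 0.49 (limma, adjusted p = 3.55e-04). In other carcinomas with their own normal tissue the mean log2 difference was 1.84 ± 1.64 in 20 complex carcinomas, 18 of them higher in the tumor. In 21 simple carcinomas it was 1.13 ± 2.05, with 16 higher in the tumor. Only 2 dogs had a benign mixed tumor with normal tissue, and their differences were -0.02 and 1.72. The difference between carcinoma in mixed tumor and complex carcinoma was 1.20 (95% interval -0.06 to 2.46, limma, adjusted p = 0.739). Against simple carcinoma it was 1.91 (95% interval 0.35 to 3.46, adjusted p = 1.00). Neither passed the test over all genes. The gene was picked for its small p in the same dogs with carcinoma in mixed tumor. That choice favors a larger difference in this class. These intervals therefore cannot test whether the gene rises more in this class than in other carcinomas.

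**Figure D4:**
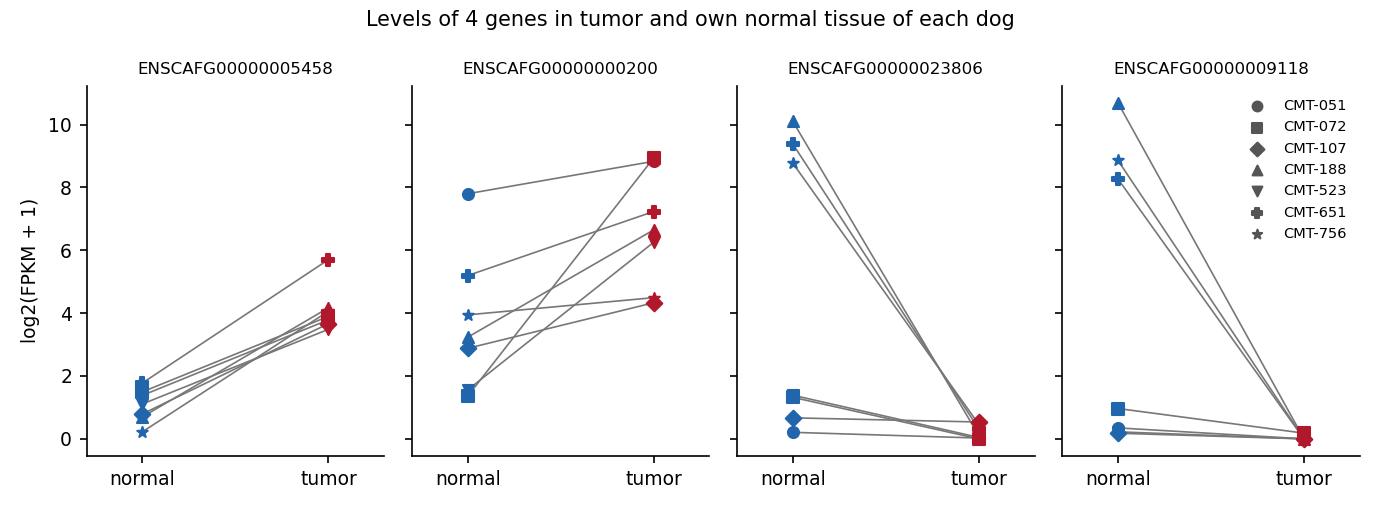
Level on the log2(FPKM + 1) scale (y axis) of 4 genes in normal tissue (blue) and tumor (red) of the 7 dogs, with a symbol for each dog and a line between its tissues. ENSCAFG00000005458 rose in every dog from at most 2.43 FPKM to at least 10.2, while the 2 genes on the right were between 307.4 and 1652 FPKM in the normal tissue of CMT-188, CMT-651 and CMT-756 and below 2 FPKM elsewhere.

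With a single call, 3 further genes were named after their values had been seen, as those with the most extreme mean differences among genes that moved the same way in all 7 dogs. None of the 3 passed the paired test. ENSCAFG00000000200 had tumor FPKM of 453.9, 487.9, 19.1, 99.2, 75.3, 149.4 and 21.5 in CMT-051, CMT-072, CMT-107, CMT-188, CMT-523, CMT-651 and CMT-756. The normal values in the same order were 221.5, 1.56, 6.36, 8.40, 1.94, 35.6 and 14.4, so the tissues overlapped widely. Its log2 difference ran from 0.547 in CMT-756 to 7.58 in CMT-072, with a mean of 2.96 and a standard error of 0.79 (limma, adjusted p = 0.414). It was called in the unmatched tumors, with a log2 difference of 3.80 (standard error 0.64, limma, adjusted p = 2.78e-05). The rise was not particular to this tumor class. The mean log2 difference was 2.89 ± 2.48 in 20 complex carcinomas, 16 of them higher in the tumor. In 21 simple carcinomas it was 1.68 ± 3.28, with 13 higher, and both benign mixed tumors were higher (mean 3.94).

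ENSCAFG00000023806 and ENSCAFG00000009118 were abundant in some normal tissues and nearly absent from every tumor. ENSCAFG00000023806 stood at 1096, 665.5 and 435.8 FPKM in the normal tissues of CMT-188, CMT-651 and CMT-756 and at 0.155 to 1.62 in the other 4. The 7 tumors held 0 to 0.45 FPKM. ENSCAFG00000009118 stood at 1652, 307.4 and 463.5 FPKM in the same 3 normal tissues and at 0.132 to 0.953 in the other 4. It was listed at 0 in 6 tumors and at 0.134 in the tumor of CMT-072. In those 4 dogs both genes were at 1.62 FPKM or less in both tissues. There the shared direction rests on values near the floor, and the large falls are those of 3 dogs. The differences spread widely between dogs, and the adjusted p was 0.459 and 0.490 (limma). Against the normal tissues of other dogs the unmatched tumors did not pass the test for either gene (adjusted p = 0.0527 and 0.0699). Other carcinomas showed falls too. For ENSCAFG00000023806 the mean log2 difference was -2.67 ± 2.86 in 20 complex carcinomas (20 lower) and -3.86 ± 4.51 in 21 simple carcinomas (18 lower). For ENSCAFG00000009118 it was -2.36 ± 3.08 (16 lower) and -3.91 ± 4.36 (19 lower). The medians in complex and simple carcinomas were smaller in size, -1.23 and -1.31 for ENSCAFG00000023806 and -0.768 and -1.39 for ENSCAFG00000009118. The larger falls there too are those of part of the dogs. Of the 2 benign mixed tumors, 2 were lower for ENSCAFG00000023806 (mean -3.41) and 1 for ENSCAFG00000009118 (mean -3.68).

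A separate comparison set the 8 unmatched carcinomas in mixed tumor against the 57 normal tissues of other dogs, and it shares no library with the 7 dogs. The 57 normal tissues lay beside tumors of other classes. Most of the 8 tumors were from surgery in 2016 and most of the 57 normal tissues from later years. Year was not in the fit, so tissue and surgery year cannot be fully told apart in the calls below. Ages of the 8 dogs reach below and above those of the 7, and age was not in the fit either. Of 14640 genes, 730 were called (4.99%), 224 higher (1.53%) and 506 lower (3.46%) in the tumors. With quantile normalization the split was 310 higher and 415 lower, so its balance depends on the scaling. One of the 8, CMT-505, was closer to normal tissue than to the other unmatched tumors, and without it 1062 genes were called, 283 higher and 779 lower. With histology from the sample labels, which drops CMT-257, there were 744 calls. These lists were then read in the 7 dogs.

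The genes called in the unmatched tumors moved the same way, on average, in the paired tumors. Of the 223 higher genes that could be read, 221 (99.1%) had a mean difference above 0 in the 7 dogs, with a median log2 difference of 0.967, and 48.0% reached 2-fold. Of the 506 lower genes, 503 (99.4%) had a mean below 0, with a median of -0.939, and 43.9% reached 2-fold. Over all 14514 genes 50.1% had a mean above 0, the median was 0.000581, and 1.7% were 2-fold higher and 3.79% 2-fold lower. Without CMT-051 and CMT-756, 222 of the 223 had a mean above 0 and 501 of the 506 a mean below 0, with medians of 1.51 and -1.34. These 2 dogs were set aside for their likeness to the same unmatched tumors, so part of that rise in the medians is fixed by the choice. Genes of a list vary together within a library, so these shares are descriptions and carry no test.

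Single dogs departed from that average in opposite ways. In CMT-072, CMT-107, CMT-188, CMT-523 and CMT-651, between 85.7% and 97.8% of the 223 higher genes were higher in the tumor, with medians of 0.878 to 2.62 on the log2 scale. In the same 5 dogs, 74.3% to 99.2% of the 506 lower genes were lower, with medians of -2.22 to -0.479. CMT-051 had 48.9% of the higher genes higher and 68.2% of the lower genes lower, with medians of -0.0285 and -0.23. Its share of all genes higher in the tumor was 46.4%. CMT-756 ran the other way, with 28.3% of the higher genes higher and 36.8% of the lower genes lower, and medians of -0.519 and 0.444. There 34.6% of all genes were higher in the tumor and the median of all genes was -0.257. Both dogs are those with a library that stood apart in likeness, a measure that uses the same unmatched tumors.

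**Figure D5:**
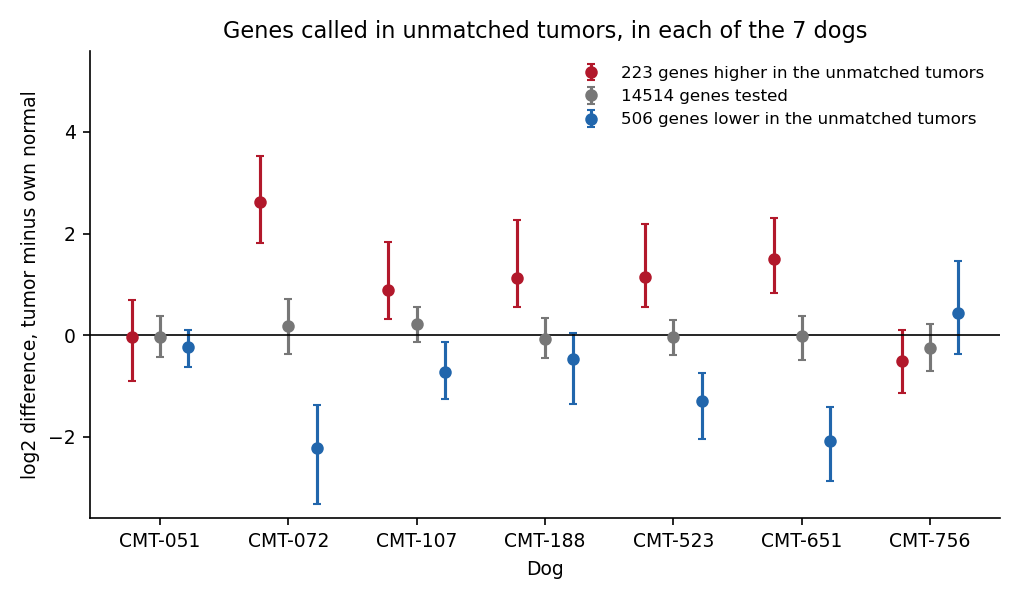
Median (points) and quartiles (bars) of the log2 difference, tumor minus own normal (y axis), in each of the 7 dogs (x axis) for the genes called higher (red, 223) or lower (blue, 506) in unmatched carcinomas in mixed tumor and for all 14514 genes (grey). Red lies above blue in every dog except CMT-756 (medians -0.519 and 0.444), and the gap is widest in CMT-072 (2.62 and -2.22).

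Genes that moved the same way in all 7 dogs were few, 161 higher (1.11%) and 190 lower (1.31%). Their mean log2 differences had a size of 0.181 to 3.04 for the higher and 0.188 to 4.34 for the lower genes, and 29 and 80 of them reached 2-fold. In the unmatched tumors all but 2 of the 161 were tested, and 24 (15.1%) were called higher and 0 lower, where 1.56% of all genes tested in both were called higher. All but 2 of the 190 were tested, and 63 (33.5%) were called lower and 0 higher, where 3.54% of all genes were called lower. Without a threshold, 141 of the former were higher and 18 lower in the unmatched tumors, and 186 of the latter were lower and 2 higher. Without CMT-051 and CMT-756, 1529 genes (10.5%) were higher and 764 (5.26%) lower in all 5 remaining dogs. Some genes agree in sign among 7 dogs without any shared change, and more do so among 5. The 2 dogs were also set aside after the data were seen, so part of this rise is fixed by the choice.

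The next comparisons ask whether the change from normal tissue to tumor differs between carcinoma in mixed tumor and other carcinomas, using the differences within dogs. Both use the same 7 dogs. Tumor class is that of the clinical table. The sample labels give a complex adenoma for 1 of the complex carcinomas (CMT-374) and a simple adenoma for 1 of the simple carcinomas (CMT-149). By the labels, both other classes include tumors of a higher grade and of lower Allred scores than any of the 7. Both also include dogs outside the age range of the 7. Grade, staining and age were not in the fits, so tumor class cannot be fully told apart from them in these comparisons. Against 20 complex carcinomas, 0 of 14637 genes were called (limma, smallest adjusted p = 0.739), and 804 genes (5.49%) had an unadjusted p under 0.05. With a dog left out that share ran from 2.03% (without CMT-188) to 10.8% (without CMT-072), and it was 2.43% without CMT-756, 8.73% without CMT-107 and 2.05% without CMT-051 and CMT-756. The difference was at least 2-fold for 424 genes, and 296 of these were lower in carcinoma in mixed tumor. Its 95% interval lay within 2-fold for 8729 genes (59.6%), with a median half-width of 0.601 on the log2 scale. The median over all genes was -0.153, and -0.00209 after quantile normalization. Against 21 simple carcinomas, 0 of 14671 genes were called (limma, smallest adjusted p = 1.00), and 1.59% had an unadjusted p under 0.05. With a dog left out this share ran from 0.887% (without CMT-523) to 3.16% (without CMT-072), and it was 2.41% without CMT-651 and 2.56% without CMT-051 and CMT-756. Here 151 genes were at least 2-fold higher and 114 lower, and the interval lay within 2-fold for 10363 genes (70.6%). These tests give no call, and for the remaining genes the intervals include a difference of 2-fold.

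The overall size of the change did not differ from that in the other carcinomas by more than the spread between dogs. The root mean square of the log2 differences over genes was 1.03 ± 0.204 per dog in carcinoma in mixed tumor (SD, n = 7), from 0.765 in CMT-051 to 1.35 in CMT-072. It was 1.09 ± 0.251 in complex carcinoma (n = 20, exact two-sided permutation p = 0.613, adjusted p = 0.908). In simple carcinoma it was 1.02 ± 0.245 (n = 21, exact two-sided permutation p = 0.908, adjusted p = 0.908).

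None of 4 measures of whole libraries differed between tumor and normal tissue beyond the spread between dogs. Tumors had 12398 ± 537 genes at 1 FPKM or more and normal tissues 12600 ± 311 (SD, n = 7 each), with 2 of 7 dogs higher in the tumor (exact sign-flip permutation p = 0.406). The 10 most abundant genes held 19.0% ± 2.58 and 20.4% ± 4.56 of the FPKM total (exact p = 0.516, 3 of 7 dogs higher). The median FPKM of expressed genes was 8.44 ± 0.387 and 8.32 ± 0.54 (exact p = 0.719, 4 of 7 dogs higher). The distance of a library from the mean of the other 6 of its tissue, as a root mean square on the log2 scale, was 0.756 ± 0.221 and 0.823 ± 0.146 (exact p = 0.516). It was lower in the tumor in 6 of 7 dogs, and CMT-756 was the exception with 1.23 against 0.715. The adjusted p over these 4 measures lay between 0.688 and 0.719, and 0.0156 is the smallest p that 7 dogs allow.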

How the data were processed

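Per the labels, poly(A) RNA of fresh mammary tumor and adjacent normal tissue was sequenced. The authors mapped reads to CanFam3.1 with TopHat2 2.0.9 and Ensembl annotation and deposited FPKM values from Cufflinks 2.1.1, for 24580 gene identifiers, of which 5200 were at 0 in all 14 libraries. No further scaling between libraries is stated. The library type was given as fr-firststrand. Depth behind single values is unknown, so errors are the spread between dogs.

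Tissue was taken from the sample labels and tumor class from the study's clinical table. The 7 dogs, the tests and the lists were chosen with earlier results of these data known. FPKM values were used as log2(FPKM + 1), which understates the change of weakly expressed genes, over genes averaging 0.5 FPKM or more across the compared libraries. The main test was limma 3.58.1 in R 4.3.3 with an intensity trend, two-sided, with the dog as a block. Both libraries of a dog come from the same animal according to the labels, and the deviations of a dog's libraries from their tissue means correlated between -0.13 and 0.325 (mean 0.144). Each dog is 1 animal with 1 library per tissue. Comparisons with other carcinomas used limma on differences within dogs. A call needed an adjusted p under 0.05 and a 2-fold difference. Genes to be named were the 2 highest and 2 lowest called genes that averaged 5 FPKM or more in the higher tissue and moved the same way in all 7 dogs, and only 1 was found. Library measures were tested over all sign patterns of the 7 differences. Scripts used Python 3.11.15 and were tested on simulated data. Alternatives were a pseudocount of 0.1, a mean FPKM of 5 or no filter, upper quartile scaling, quantile normalization, label histology, no block, surgery years, robust fitting, 64 dogs in one fit and each dog left out.

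No gene names, coordinates or sequences were available here for the identifiers, so marker lists fixed for luminal, myoepithelial, cartilage, bone, fat, milk, immune and other cells gave no result. No sequencing batch or date was given.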

Additional observations from a re-analysis of the deposited data

Results flagged for a closer look

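In each group of 7 or 8 libraries or dogs, a value was picked out where its gap to the nearest other value exceeded 0.568 (7 values) or 0.526 (8 values) of the whole range, Dixon's 95% limits. Of 42 groups examined 10 were picked out, where chance alone picks about 1 in 20. That share is for normally distributed, independent measures, which these are not, so the number picked out is no test.

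The tumor of CMT-756 was picked out on 3 measures. Its distance from the mean of the other 6 tumors was 1.23 on the log2 scale, with 0.804 as the next highest. Its correlation with the mean of the unmatched tumors was 0.831, with 0.928 as the next lowest. Its correlation with tumors minus that with normal tissues was -0.0677, with 0.0283 as the next lowest. Among the 8 unmatched tumors, CMT-505 was picked out in the same way, with -0.0634 and 0.00794 as the next lowest.

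CMT-072 had 2358 genes at least 2-fold higher in the tumor, and 1283 was the next highest count. CMT-107 had 34 genes at least 8-fold lower in that dog alone, and 9 was the next highest count.

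The other 4 values are FPKM of named genes, which are skewed, and 3 of these genes were chosen after their values were seen. ENSCAFG00000000200 stood at 221.5 FPKM in the normal tissue of CMT-051 and at 35.6 or less in the other 6. ENSCAFG00000005458 stood at 51.1 FPKM in the tumor of CMT-651 and at 17.0 or less in the other 6. ENSCAFG00000009118 stood at 1652 FPKM in the normal tissue of CMT-188, with 463.5 as the next highest. The same gene was at 0.134 FPKM in the tumor of CMT-072 and listed at 0 in the other 6, so that any value above 0 would have been picked out.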

How the results depend on the processing

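With 7 dogs the paired test rests on few calls, so counts of 0 and 1 differ by a single gene. The paired comparison gave 1 call. It gave 0 without a filter on low values (limma, smallest adjusted p 0.0598) and with histology from the labels. It also gave 0 in the 3 dogs of 2016 and in the 3 dogs of 2017. In that order, 1608 (8.3%), 1549 (10.7%), 658 (4.6%) and 1868 (13.0%) genes had an unadjusted p under 0.05 (limma). With a dog left out the comparison gave between 0 and 1. Without the replicate block it gave 4 calls, with all 64 dogs in the fit 12 (10 higher, 2 lower), and without CMT-051 and CMT-756, a choice made after seeing the data, 8. The call of ENSCAFG00000005458 was part of the 4, the 12 and the 8. The other 5 planned settings gave 1 call. The unmatched comparison gave 730 calls, 1229 with a pseudocount of 0.1 (324 higher, 905 lower), and within 1.5 times of 730 in the other 6 alternatives. Scaling moved the median of all genes there from -0.0676 to 0.0106 (upper quartile) and 0.0524 (quantile). Against complex carcinoma every alternative gave 0 calls. Against simple carcinoma the count was between 0 and 1 with a dog left out, the 1 (lower, adjusted p = 0.0132, limma) arising without CMT-107, and 0 otherwise. The tumor minus normal difference in the median FPKM of expressed genes was 0.112 and became -0.0902 with expression counted from 0.1 FPKM, neither past the test. The direction of all 4 named genes was the same in every alternative that held them. Causes were not tested. The depth behind single values is unknown.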

Other observations

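ENSCAFG00000023806 and ENSCAFG00000009118, the 2 genes with the largest mean fall among genes lower in all 7 dogs at a mean of 5 FPKM or more in normal tissue, were high or low together in normal mammary tissue. At a limit of 100 FPKM, set after the values were seen, both genes were above it in 3 of the 7 normal tissues and neither in the other 4. Among the 57 normal tissues of other dogs, both were above 100 FPKM in 17, 1 of them in 5, and neither in 35. ENSCAFG00000023806 reached 2737 FPKM there with a median of 4.74, and ENSCAFG00000009118 reached 2198 with a median of 2.2. Of the tumors of these 57 dogs, 1 had both genes above 100 FPKM, 1 had a single gene above it and 55 had neither. In 0 of the 8 unmatched carcinomas in mixed tumor was either gene above it, and the highest values were 27.3 and 11.5 FPKM.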
